A study of Mus musculus with 24 samples.

Results

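New neurons are added to the dentate gyrus of the adult rodent hippocampus from radial glia-like stem cells, which give rise to dividing intermediate progenitors, then to migrating neuroblasts and immature granule neurons. Each step is marked by its own genes, and the pool of dividing progenitors and neuroblasts is known to shrink with age in rodents. The same genes are used in the subventricular zone and rostral migratory stream, whose neuroblasts supply the olfactory bulb.

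The 10 genes described here were taken by symbol from the 24411 genes of the count table: the proliferation genes Mki67 and Top2a, the intermediate progenitor gene Eomes, the neuroblast and immature neuron genes Dcx, Sox11, Sox4, Igfbpl1, Draxin and Neurod1, and the neuronal tubulin gene Tubb3. All 10 were found. They were measured by poly(A) RNA-seq of the left hippocampus of mice of both sexes in 6 groups. The young (age 9 months, 4 libraries), old (20 months, 4 libraries) and Old-Nano (20 months, 4 libraries) groups were wildtype C57/B6 mice from an aging colony. Old-Nano mice received a Nanoligomer cocktail, antisense peptide nucleic acids on gold nanoparticles directed at NF-κB and NLRP3, for about a month. The LM (littermate control, 4 libraries), rTg4510 (3 distinct libraries) and rTg4510-Nano (4 libraries) groups were aged 3 months. rTg4510 mice express a mutant human tau in forebrain neurons through a tetracycline-controlled transgene, and rTg4510-Nano mice received the same cocktail. The genotype label of the LM libraries also reads rTg4510, so their status as controls rests on the treatment and description labels. Untreated groups are labelled control, with no vehicle given in the labels. The rTg4510 columns M2 and M3 were identical and were counted as 1 library. Libraries are named by group and by the sex letter and number of their title, such as old M1, and nothing in the labels says how animals were housed or whether libraries came from separate litters.

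Total counts per library ranged from 17214974 to 27424344. Markers of the olfactory bulb (10 genes, among them Cdhr1 and Doc2g, genes of mitral and tufted cells) stood far apart in 2 libraries. Their summed level was 1414 CPM (counts scaled to a common library size) in young M4 and 337 CPM in old M1, against 14.97 to 136 CPM in the other 21 libraries. The 10 genes of the subventricular zone and rostral stream lineage summed to 2814 CPM in young M4 and 1227 CPM in old M1, against 176 to 366 CPM elsewhere. Markers of CA pyramidal cells averaged 2.89 and 3.64 on the log2 CPM scale in these 2 libraries, 3.12 to 3.52 in Old-Nano F1, rTg4510 F1 and rTg4510-Nano M2, and 4.68 to 6.25 in the remaining 18. rTg4510-Nano M2 also held 242 CPM of hypothalamus markers, against 0.485 to 2.95 CPM elsewhere, and the 136 CPM of olfactory bulb markers above. Old M1 was set apart in markers of the striatum as well (6 genes). They averaged 7.08 on the log2 CPM scale there, against 1.61 to 4.32 in the 21 libraries other than old M1 and young M4. Old against young is therefore given with and without old M1 and young M4. In bulk tissue, fewer cells of a type and less RNA per cell cannot be told apart.

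The promoters of Top2a and Mki67 are shown because these 2 proliferation genes had the highest correlation of any pair of members over the 21 libraries other than old M1 and young M4, and because genes of G2 and M phase are known to carry CCAAT boxes and the cell cycle element TTTGAA near their start sites. The 250 bases before each RefSeq start site (GRCm38.p6, minus strand, written 5′ to 3′) are at chr11:99024190-99024439 for Top2a and chr7:135716380-135716629 for Mki67, with CCAAT or its reverse complement ATTGG, and TTTGAA or TTCAAA, in capitals.
Top2a: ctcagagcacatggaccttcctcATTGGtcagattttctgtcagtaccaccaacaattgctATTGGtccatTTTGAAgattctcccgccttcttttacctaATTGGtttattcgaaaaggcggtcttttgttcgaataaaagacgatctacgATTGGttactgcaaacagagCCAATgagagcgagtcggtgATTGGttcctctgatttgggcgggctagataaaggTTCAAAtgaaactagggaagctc
Mki67: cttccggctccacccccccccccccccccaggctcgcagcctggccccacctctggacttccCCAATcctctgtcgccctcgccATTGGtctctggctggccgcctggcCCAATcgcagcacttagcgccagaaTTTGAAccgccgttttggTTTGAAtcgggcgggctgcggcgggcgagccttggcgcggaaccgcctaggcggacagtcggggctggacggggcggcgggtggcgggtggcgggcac
Top2a held 6 CCAAT matches and 2 TTTGAA matches on the 2 strands, and Mki67 held 3 and 2. Of 32851 RefSeq promoters of this length, 33.8% held CCAAT at least once, 2.79% held it 3 times or more, and 16% held TTTGAA at least once. Among the members with an entry (9 of 10 genes, Dcx with 2 start sites; Igfbpl1 is named only), CCAAT also occurred 4 times before Sox4, 2 times before Eomes, and once before Sox11, Tubb3 and the more upstream Dcx start site. TTTGAA occurred once before Sox11. The E-box CAGCTG (13% of promoters) occurred before Draxin, Sox11 and Sox4, the E-box CAGATG (14.4%) before none, and the SOX motif ACAAAG (16.5%) before Draxin and the more downstream Dcx start site. These matches describe the letters of the window and are no evidence of binding.

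Per kilobase of exon, Tubb3 was by far the highest member, at 145 CPM per kb in the 3 young libraries other than M4. Neurod1 followed at 10.1, Sox4 at 4.40, Sox11 at 3.40, Dcx at 1.46 and Igfbpl1 at 1.07 CPM per kb. Draxin (0.412), Mki67 (0.295), Top2a (0.212) and Eomes (0.173) were the lowest. The exon lengths are those of GENCODE M21 on GRCm38, where Mki67 lies on chromosome 7 at 135689784 to 135716361 and Top2a on chromosome 11 at 98992943 to 99024189. Exons of Eomes, Sox4 and Neurod1 overlap the span of antisense or noncoding genes, and exons of Neurod1 also that of Cerkl. Top2a exons overlap the span of the snoRNA gene Gm23451, Tubb3 exons the long gene Gm20388, and Draxin exons the opposite-strand gene Mad2l2. Whether they overlap exons of those genes was not worked out. Cerkl, Gm23451 and Gm20388 lie on the same strand as the member, where strand could not separate any shared reads. For the opposite-strand pairs, the strand setting of the counting is not given in the sources used here.

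**Figure D1:**
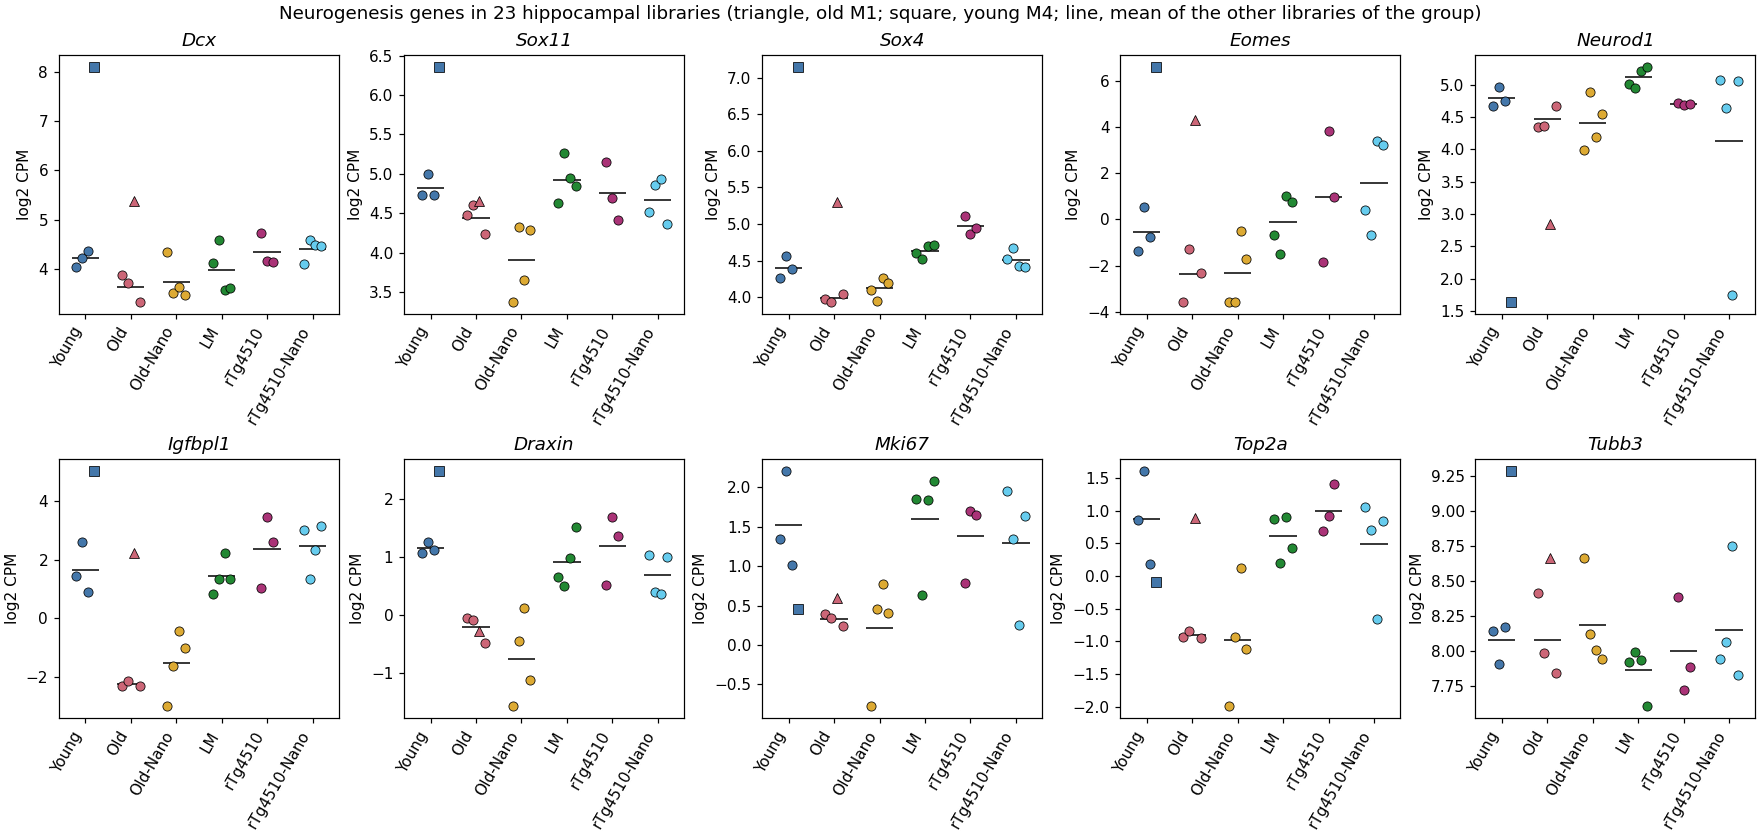
Level of each of the 10 genes in 23 libraries, in log2 CPM, by group. Points are libraries, black lines the group means without old M1 (triangle) and young M4 (square). Igfbpl1 lies below 0 in the 7 other old and Old-Nano libraries and above 0 in all other libraries, and Neurod1 is lowest in young M4 and rTg4510-Nano M2.

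The 2 proliferation genes had lower values in old than in young hippocampus when old M1 and young M4 were set aside, and neither passed the edgeR threshold. Mki67, which encodes the Ki-67 protein of dividing cells, was at 2.45, 4.53 and 1.93 CPM in young F2, F4 and M1, and at 1.23, 1.19 and 1.10 CPM in old F2, F3 and M3. All 3 old libraries were below all 3 young ones, and young F4 was the highest. The log2 fold change was -1.33 ± 0.36 (SE, n = 3 and 3; 95% interval -2.18 to -0.49), with an edgeR adjusted p of 0.222. Top2a, the topoisomerase needed to separate sister chromatids, was at 1.72, 2.96 and 1.05 CPM in these young libraries and at 0.438, 0.475 and 0.433 CPM in the old ones. The groups again did not overlap, and the old values lay close together. Its log2 fold change was -2.08 ± 0.44 (95% interval -3.11 to -1.04), with an edgeR adjusted p of 0.196. Old M1 and young M4 went the other way for this pair. Top2a was at 1.77 CPM in old M1 and 0.849 CPM in young M4, and Mki67 was at 1.42 and 1.29 CPM.

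Eomes (Tbr2), a transcription factor of intermediate progenitors that is also abundant in olfactory bulb projection neurons, was close to the floor of the assay. Its counts were 7, 31 and 12 in young F2, F4 and M1 and 0, 7 and 3 in old F2, F3 and M3, so the highest old count equalled the lowest young one. In CPM the ranges overlapped, 0.301 to 1.35 in young and 0 to 0.333 in old. The log2 fold change was -2.27 ± 0.99 (95% interval -4.63 to 0.08), with an edgeR adjusted p of 0.350. Eomes met the mean count of 10 needed for testing only through its young counts. Young M4 held 97.0 CPM and old M1 19.8 CPM of Eomes.

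Igfbpl1, which encodes an insulin-like growth factor binding protein-like factor and marks neuroblasts in mouse dentate gyrus, showed the largest difference of the 10 genes. It was counted 61, 139 and 43 times in young F2, F4 and M1, which is 2.62, 6.05 and 1.80 CPM, and 3 times in each of old F2, F3 and M3, which is 0.119, 0.143 and 0.118 CPM. Summed over libraries, the 243 young and 9 old counts give a level 27.0 times as high in young (95% exact binomial interval 14.0 to 59.8, counting error only). The log2 fold change was -4.73 ± 0.59 (95% interval -6.13 to -3.33), with an edgeR adjusted p of 0.150. Igfbpl1 likewise met the mean count of 10 needed for testing only through its young counts. Young M4 held 32.3 CPM and old M1 4.66 CPM.

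Draxin, a repulsive axon guidance protein, was at 2.02, 2.31 and 2.10 CPM in the same young libraries and at 0.875, 0.855 and 0.630 CPM in the old ones. Old M1, at 0.733 CPM, lay among the other old libraries, while young M4 was high at 5.50 CPM. Its log2 fold change was -1.44 ± 0.26 without these libraries and -1.95 ± 0.39 with them, with edgeR adjusted p of 0.174 and 0.300.

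Doublecortin, the microtubule-binding product of Dcx and the standard marker of neuroblasts, differed less. Dcx was at 16.3, 18.7 and 20.5 CPM in young F2, F4 and M1 and at 14.5, 13.02 and 9.96 CPM in old F2, F3 and M3. The groups did not overlap, though old F2 lay near young F2. The log2 fold change was -0.57 ± 0.16 (95% interval -0.95 to -0.18), with an edgeR adjusted p of 0.235. Young M4 held 276 CPM and old M1 41.3 CPM, and with both included the log2 fold change was -2.08 ± 1.06.

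The transcription factor genes Sox4 and Sox11, which act in neuronal commitment and maturation, also lay lower. Sox4 was at 19.1, 23.5 and 20.8 CPM in young and 15.6, 15.2 and 16.4 CPM in old, without overlap, with a log2 fold change of -0.42 ± 0.10 and an edgeR adjusted p of 0.214. Sox11 was at 26.5, 31.8 and 26.5 CPM in young and 22.2, 24.3 and 18.8 CPM in old, without overlap, with a log2 fold change of -0.37 ± 0.13 and an edgeR adjusted p of 0.272. Neurod1, which promotes granule neuron differentiation and stays on in mature granule neurons, was at 25.3, 31.1 and 26.7 CPM in young and 20.3, 20.5 and 25.4 CPM in old. The highest old library just exceeded the lowest young one, and the log2 fold change was -0.33 ± 0.13 with an edgeR adjusted p of 0.305. Tubb3, expressed by neurons in general, was at 240 to 288 CPM in young and 229 to 340 CPM in old, with a log2 fold change of 0.02 ± 0.16.

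Across the 10 genes, none passed the edgeR threshold of adjusted p 0.05 without old M1 and young M4, and none of all 15258 genes did (0% of them). An unadjusted edgeR p under 0.05 was reached by 8 of 10 members, all lower in old, against 5.87% of all genes lower. The 3 old libraries lay below the 3 young ones for 7 of 10 members, against 10.4% of all genes. Both counts include Igfbpl1, which met the mean count of 10 needed for testing only through its young counts. In all, 9 of 10 log2 fold changes were negative, with a median of -0.95, and the median of all genes was 0.00. The genes and the libraries set aside were chosen with earlier results of these data known. Such counts are therefore a description and no independent support, here and below. Leaving out young F4 as well gave a median of -0.57 over the 9 members then tested. Of these, 6 had an unadjusted edgeR p under 0.05, against 2010 of 15208 genes in either direction. Leaving out young M1 instead gave a median of -0.49. DESeq2 called Igfbpl1, Draxin and Top2a lower, where it called 0.971% of all genes lower. Markers of other cells also differed between these libraries. All 5 microglia markers had positive log2 fold changes, 4 of them with an unadjusted edgeR p under 0.05 (median 0.49), and they summed to 368 to 481 CPM in old and 299.7 to 340 CPM in young. Of 9 dentate granule cell markers, 3 were negative (median 0.37), and of 8 CA pyramidal cell markers, 6 were (median -0.55). Of 8 choroid plexus markers tested, 7 were negative (median -0.49), and all 3 pituitary markers tested were (median -4.13). Young F4 was the highest of the 3 young libraries for every member but Dcx and Tubb3. The 5 hepatocyte markers summed to 657 CPM in young F4 and to 486 CPM in old F3, against 4.32 to 91.6 CPM in the other 4. The part of these other cells in the member values was not tested.

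With all 4 old and 4 young libraries, all 10 log2 fold changes were negative, with a median of -1.16 against -0.03 over all genes, but the spread was far wider. No member passed the edgeR threshold, which 0.0130% of 15335 genes did. An unadjusted edgeR p under 0.05 was reached by 3 members, against 4.06% of all genes lower. This count was 1 when old F2, old F3 or old M3 was left out, against 1540 of 15334, 1095 of 15324 and 1387 of 15335 genes in either direction. It was 5 when old M1 was left out, against 1297 of 15343 genes. DESeq2 called Draxin lower, as it did 0.352% of genes, and only Sox11 and Draxin had old libraries all below the young ones, against 3.08% of genes. The log2 fold changes were -3.08 ± 1.46 for Igfbpl1, -2.30 ± 2.18 for Eomes, -1.25 ± 0.74 for Sox4, -1.07 ± 0.61 for Top2a, -1.04 ± 0.38 for Mki67, -0.89 ± 0.38 for Sox11, -0.24 ± 0.64 for Neurod1 and -0.23 ± 0.34 for Tubb3. Leaving out young M4 alone turned Dcx, Sox4, Eomes and Tubb3 positive, to 0.092, 0.042, 2.81 and 0.184. Of 6 striatum markers, 5 had an unadjusted edgeR p under 0.05, higher in old (median 2.97), against 960 of 15335 genes higher. The part of olfactory bulb or striatal tissue in these values was not tested.

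**Figure D2:**
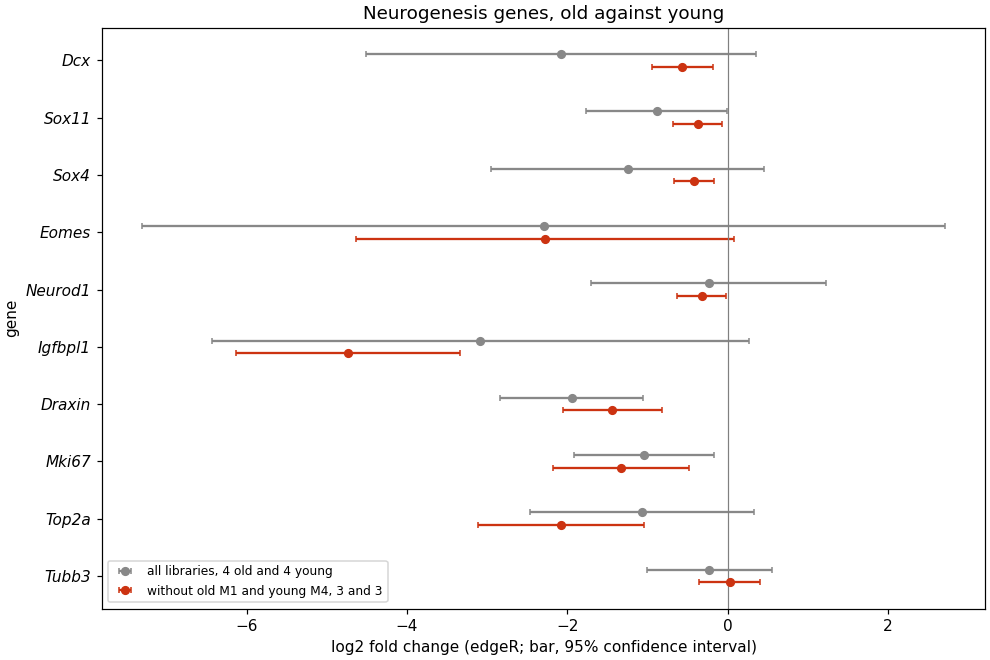
log2 fold change of each gene, old against young, with 95% confidence intervals from edgeR. Grey points use all libraries and red points leave out old M1 and young M4. Without them the intervals of 8 genes lie wholly below 0, and that of Igfbpl1 runs from -6.13 to -3.33.

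The 2 libraries with olfactory bulb markers were not uniformly high in these genes. Young M4 was the highest of 23 libraries for Dcx, Sox11, Sox4, Eomes, Igfbpl1, Draxin and Tubb3 and the lowest for Neurod1, at 3.03 CPM. Old M1 came second for Dcx, Sox4 and Eomes and held 7.07 CPM of Neurod1. Outside these 2 libraries, rTg4510-Nano M2 had the lowest Neurod1, at 3.27 CPM, with the next lowest library at 15.8 CPM, and it is the library with hypothalamus markers. Eomes was highest after them in rTg4510 F3, rTg4510-Nano M2 and rTg4510-Nano M3, at 14.1, 10.5 and 9.29 CPM. These 3 libraries held 29.2, 136 and 39.0 CPM of olfactory bulb markers, and LM F3, with 49.7 CPM of them, held 0.266 CPM of Eomes.

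**Figure D3:**
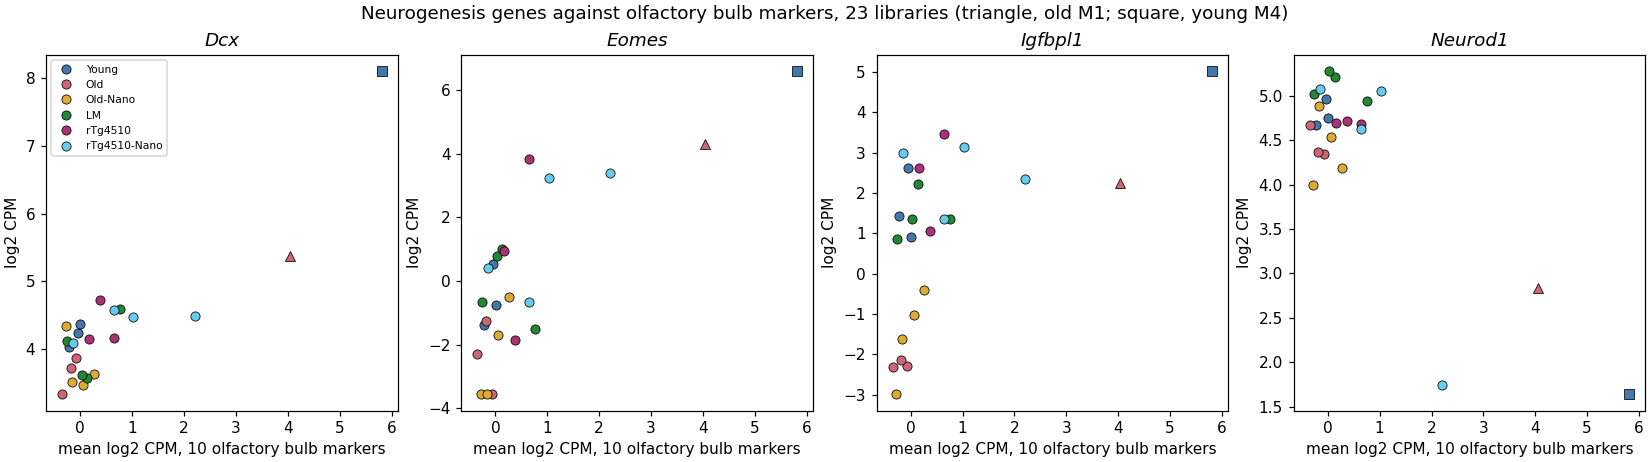
log2 CPM of Dcx, Eomes, Igfbpl1 and Neurod1 against the mean log2 CPM of 10 olfactory bulb markers in 23 libraries, coloured by group. Young M4 (square) and old M1 (triangle) lie at 5.81 and 4.04 on the marker axis, with Dcx and Eomes high and Neurod1 low.

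Old-Nano libraries were set against old ones to ask whether the treatment moved these genes in aged mice. With old M1 set aside, 8 of 10 members had enough counts to be tested, since Eomes and Igfbpl1 fell under the mean count of 10. None passed the edgeR threshold (0% of all genes did) and none had an unadjusted edgeR p under 0.05, against 1.15% of all genes, and the median log2 fold change was 0.05, against 0.01 for all genes. Igfbpl1 was at 0.0416, 0.241, 0.665 and 0.412 CPM in Old-Nano F1, F2, M2 and M5, of 1, 6, 18 and 11 counts. Of these 4, 3 exceeded the 3 old libraries, and F1 lay below them. Eomes was at 0, 0, 0.628 and 0.225 CPM. With all libraries no member passed either (0%), and Sox11 alone had an unadjusted edgeR p under 0.05 (0.885% of all genes were so lower), with a log2 fold change of -0.54 ± 0.22 and an edgeR adjusted p of 0.9999. Including old M1 made 9 of 10 log2 fold changes negative, with a median of -0.49, against -0.002 for all genes. Eomes was at -4.51 ± 1.99 and Igfbpl1 at -1.87 ± 1.31, and both met the mean count of 10 only through old M1.

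Old-Nano was also set against young without young M4, a comparison that shares its young libraries with old against young. No member passed the edgeR threshold, as for all genes (0%). An unadjusted edgeR p under 0.05 was reached by 6 members, all lower, against 5.05% of genes lower, and 6 lay wholly below young, against 5.21%. Both counts include Igfbpl1, which met the mean count of 10 needed for testing only through its young counts. Without young F4 the count at an unadjusted edgeR p under 0.05 was 3 of the 9 members then tested, against 1430 of 15199 genes in either direction. The median log2 fold change of the members moved from -1.10 to -0.77. With all these libraries, the log2 fold changes of the 6 were -3.32 ± 0.71 for Igfbpl1, -1.92 ± 0.59 for Top2a, -1.90 ± 0.44 for Draxin, -1.34 ± 0.44 for Mki67, -0.86 ± 0.24 for Sox11 and -0.27 ± 0.11 for Sox4. Top2a was at 0.166, 0.441, 0.998 and 0.374 CPM in the Old-Nano libraries F1, F2, M2 and M5, and Mki67 at 0.499, 1.28, 1.63 and 1.24 CPM. Old-Nano F1, 1 of the libraries low in CA markers, was the lowest for both genes. DESeq2 called Igfbpl1 and Draxin lower, where it called 0.327% of genes lower. All 5 hepatocyte markers had an unadjusted edgeR p under 0.05, lower in Old-Nano (median -4.88), and summed to 1.48 to 26.8 CPM there and 4.32 to 657 CPM in young. Of 5 microglia markers, 3 were so higher (median 0.50), with sums of 304 to 563 CPM in Old-Nano and 299.7 to 340 CPM in young. Their part in these values was not tested. With young M4 included, no member passed the edgeR threshold (0.00651% of genes did), 8 were lower at an unadjusted edgeR p under 0.05 (4.47% of genes), 4 lay wholly below young (2.62%), and DESeq2 called Igfbpl1, Draxin and Sox11 lower (0.631%). The 8 include Eomes and Igfbpl1, which met the mean count of 10 only through their young counts. Igfbpl1 is also among the 4.

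At 3 months, the proliferation and neuroblast genes were measurable in every library of the tauopathy cohort. Mki67 was at 3.51, 1.46, 3.49 and 4.15 CPM in LM F2, F3, M1 and M2, at 1.64, 3.15 and 3.04 CPM in rTg4510 F1, F3 and M2, and at 3.79, 2.46, 1.10 and 3.02 CPM in rTg4510-Nano F1, F2, M2 and M3. The 3 groups overlapped widely. Igfbpl1 was at 1.72, 2.48, 4.61 and 2.46 CPM in LM, at 1.98, 10.9 and 6.001 CPM in rTg4510 and at 7.91, 2.46, 4.97 and 8.73 CPM in rTg4510-Nano, in the same order of libraries. Each of these 11 libraries exceeded the 7 old and Old-Nano libraries other than old M1.

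In rTg4510 against LM, no member passed the edgeR threshold, which 0.918% of 15149 genes did, and 2 of 10 had an unadjusted edgeR p under 0.05, against 14.1% of all genes. This count was 4 without rTg4510 F1, against 2618 of 15116 genes. The members with the largest group differences, Eomes at 5.37 ± 7.57 CPM in rTg4510 and 1.09 ± 0.81 CPM in LM (SD, n = 3 and 4) and Igfbpl1 at 6.31 ± 4.49 and 2.82 ± 1.25 CPM, overlapped between the groups. Sox4 was at 34.6, 29.1 and 30.6 CPM in rTg4510 and at 24.2, 22.96, 25.9 and 26.1 CPM in LM, higher in every rTg4510 library (8.07% of genes were so placed). Its log2 fold change was 0.32 ± 0.10, with an edgeR adjusted p of 0.213. Neurod1 was at 26.1, 25.5 and 25.8 CPM in rTg4510 and at 32.2, 30.6, 36.9 and 38.7 CPM in LM, lower in every rTg4510 library (5.35% of genes). Its log2 fold change was -0.44 ± 0.11, with an edgeR adjusted p of 0.118, and DESeq2 called it lower, as it did 1.16% of genes. Of 9 dentate granule cell markers, 8 had negative log2 fold changes (median -1.07), 1 (C1ql2) was called lower, and they summed to 359 to 490 CPM in rTg4510 and 497 to 872 CPM in LM. All 8 CA pyramidal cell markers were negative (median -0.50), at 362 to 908 CPM in rTg4510 and 508 to 1104 CPM in LM. Choroid plexus markers, of which 8 of 9 were called higher, summed to 4619 to 19258 CPM in rTg4510 and 38.0 to 251 CPM in LM. The part of these cells in these values was not tested.

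In rTg4510-Nano against rTg4510, Sox4 was the only member with an unadjusted edgeR p under 0.05, against 5.58% of all genes. It was at 22.8, 25.3, 21.3 and 21.2 CPM in rTg4510-Nano, below all 3 rTg4510 libraries (4.48% of genes) and overlapping LM. The log2 fold change was -0.46 ± 0.11, with an edgeR adjusted p of 0.352 (0.0456% of genes passed), and DESeq2 called it lower, as it did 1.40% of genes. All 9 choroid plexus markers had negative log2 fold changes (median -6.21), 2 were called lower, and they summed to 34.2 to 107 CPM in rTg4510-Nano against the rTg4510 sums above. Their part in the Sox4 values was not tested. This comparison and the one above share the rTg4510 libraries. In rTg4510-Nano against LM, Eomes and Igfbpl1 had an unadjusted edgeR p under 0.05, against 7.97% of genes, with log2 fold changes of 2.32 ± 0.99 and 1.10 ± 0.44 and edgeR adjusted p of 0.613 for both (0.0264% of genes passed). Neither had one without LM F2, LM M2 or rTg4510-Nano M3. The Eomes value fell by over 1.5 times, to 0.91, with the olfactory bulb markers as a covariate. With this covariate 2 members still had an unadjusted edgeR p under 0.05, against 814 of 15179 genes. The difference of the treatment effects between old and rTg4510 mice was tested only with old M1 included. Its edgeR adjusted p was 1 for each of the 10 genes, and 22 of all 15383 genes passed. None of the 10 had an unadjusted edgeR p under 0.05, against 621 of all genes.

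**Figure D4:**
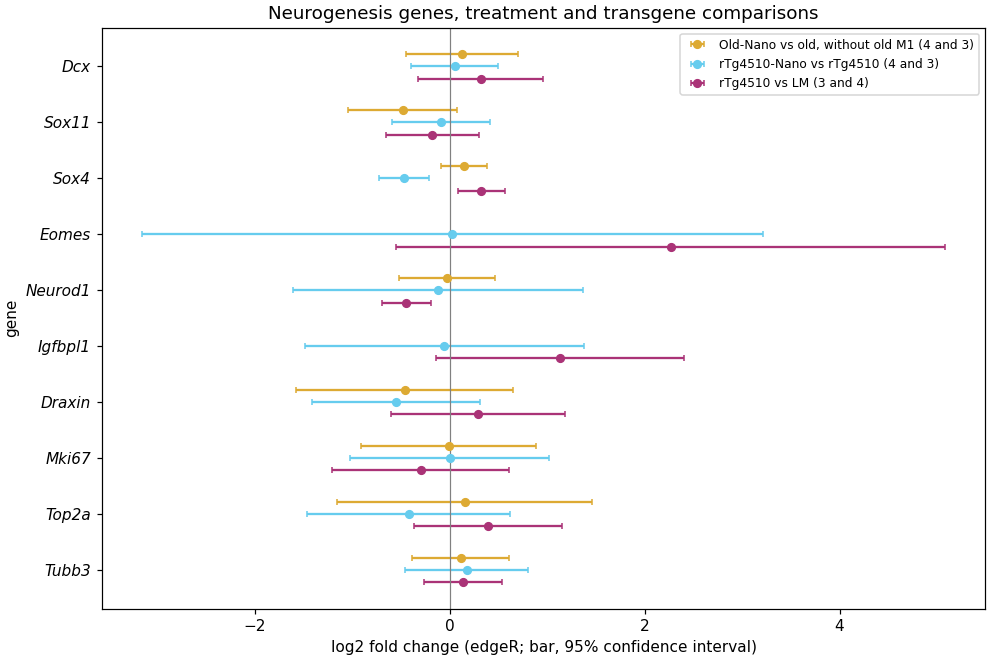
log2 fold change of each gene with 95% confidence intervals from edgeR, for Old-Nano against old without old M1, rTg4510-Nano against rTg4510, and rTg4510 against LM. Eomes and Igfbpl1 had too few counts in the first comparison. Sox4 lies at 0.32 for rTg4510 against LM and at -0.46 for rTg4510-Nano against rTg4510.

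Young against LM differs in age and colony at once, which cannot be told apart, and is given only to place the levels. Without young M4 the median log2 fold change of the members was 0.04, against 0.00 for all genes. Sox4 (-0.23 ± 0.10) and Neurod1 (-0.32 ± 0.11) had an unadjusted edgeR p under 0.05, against 9.62% of all genes lower (no member did without young F2, young M1, LM M1 or LM M2), and no member passed the adjusted threshold, which 0.595% of genes did. With young M4 none passed either (0.191% of genes did), and Dcx (2.34 ± 0.995) and Eomes (4.53 ± 1.91) had an unadjusted edgeR p under 0.05, against 7.31% of genes higher.

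Ordered by group mean without old M1 and young M4, old or Old-Nano was lowest for 9 of 10 genes, and LM for Tubb3. How many of all genes were so ordered, or had neighbouring groups without overlap, was not counted. These counts therefore have no background share, and old and Old-Nano share their age. Sox4 ran from 31.4 ± 2.8 CPM in rTg4510 (SD, n = 3) through LM (24.8 ± 1.5), rTg4510-Nano (22.7 ± 1.9), young (21.1 ± 2.2) and Old-Nano (17.4 ± 1.6) to old (15.7 ± 0.6). Only rTg4510 and LM, and young and Old-Nano, were neighbours without overlap. Igfbpl1 ran from 6.31 ± 4.49 in rTg4510 through rTg4510-Nano (6.02 ± 2.87), young (3.49 ± 2.25), LM (2.82 ± 1.25) and Old-Nano (0.340 ± 0.265) to old (0.127 ± 0.014), with no overlap between LM and Old-Nano. For Draxin the break lay between rTg4510-Nano (1.57 ± 0.42 CPM) and old (0.787 ± 0.136). For the other 7 genes all neighbouring groups overlapped.

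Over the 21 libraries other than old M1 and young M4, the log2 CPM of Mki67 and Top2a had a Pearson r of 0.92, Draxin and Top2a 0.89, Draxin and Mki67 0.87, and Igfbpl1 and Top2a 0.86. The libraries share group differences in age. With each library taken as its deviation from its group mean, Mki67 and Top2a still had an r of 0.86, and the median over the 45 gene pairs moved from 0.47 to -0.03. Tubb3 ran against Mki67 in both views (-0.68 and -0.79), and Dcx against Mki67 within groups (-0.70). Old-Nano F1, rTg4510 F1 and rTg4510-Nano M2, all low in CA markers, had the highest Tubb3 of their groups (405, 334 and 429 CPM). They also had the lowest Mki67 (0.499, 1.64 and 1.10 CPM), and the F1 libraries the highest Dcx (20.1 and 26.4 CPM). The part of these libraries in the correlations was not tested. The gene closest to the mean of the 10 standardized members was Cenpf, a kinetochore gene, at an r of 0.88. It was followed by Gm14057 (0.87), Gpr17 (0.86), Zfc3h1 (0.86), Prkg1 (0.85), 2810417H13Rik (0.85), Gm3414 (0.84), Tnc (0.83), Phax (0.83) and Aspn (0.83). Gpr17, a receptor of differentiating oligodendrocyte precursors, was at 71.9 to 99.5 CPM in 3 young and 29.9 to 53.4 CPM in 3 old libraries. Nearest to Dcx were Cxadr (0.88), Cask (0.86) and Gnb4 (0.81), nearest to Eomes were Col15a1 (0.88), Asap3 (0.86) and A230065H16Rik (0.85), and nearest to Mki67 were Top2a (0.92), Trps1 (0.89) and Draxin (0.87). These nearest genes were ranked on the log2 CPM of the 21 libraries, not on deviations from group means. Their r values therefore include the differences between groups.

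Other genes of the same lineage were read from lists in old against young without old M1 and young M4, and no gene of any of these lists passed the edgeR threshold. Among all genes tested, 49.71% had negative log2 fold changes, and an unadjusted edgeR p under 0.05 was reached by the 5.87% lower given above and by 8.95% higher. Of 24 progenitor and neuroblast genes, 23 were tested and 17 had negative log2 fold changes, with a median of -0.29. Cd24a (-1.51), a neuroblast surface protein, Dpysl3 (-0.73), Mex3a (-0.65) and Elavl2 (-0.63) had an unadjusted edgeR p under 0.05 on the lower side, and Stmn1 (0.66) on the higher. Of 24 proliferation genes, 19 were tested and 14 were negative, with a median of -0.18. The 5 with an unadjusted edgeR p under 0.05 were all lower: Rrm2 (-1.25), which supplies deoxynucleotides, the kinetochore genes Cenpf (-1.03) and Cenpe (-0.996), the spindle motor Kif11 (-0.88) and the cyclin gene Ccnd2 (-0.78). Of 15 neural stem cell and radial glia genes, 14 were tested and 3 were negative, with a median of 0.16. An unadjusted edgeR p under 0.05 was reached by 3 of the 14, all higher in old, among them Pax6 (0.50) and Aldoc (0.43), and many genes of this list are also expressed by astrocytes. Of 13 other SOX genes, 4 were negative, with a median of 0.06, and Sox12 (-0.32) had an unadjusted edgeR p under 0.05.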

How the data were processed

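Whole-number counts per gene symbol were deposited by the authors for 24 libraries and 24411 genes. Paired reads of poly(A) TruSeq libraries had been trimmed (fastp) and mapped to mm10 by STAR; for the counting program, strand, annotation and versions the sources used here give nothing. Identical columns were counted once, which left 23 libraries. In each comparison, genes whose normalized counts (TMM) averaged 10 or more were tested with edgeR 4.0.16 (robust quasi-likelihood test, TMM, R 4.3.3) and Benjamini-Hochberg adjustment over all genes tested, with a threshold of 0.05. Levels are TMM-scaled CPM, and log2 CPM used a prior count of 2. DESeq2 1.42.0 was an alternative. Standard errors are those implied by the quasi-likelihood F statistic. The test was tried on simulated data. Nothing in the labels shows that libraries came from separate cages, so p-values measure the spread between these libraries. The 10 genes, the related lists and the libraries set aside were chosen with earlier results of these data known. Named genes were the 10 members; for the related lists, genes past the threshold, otherwise those with the largest change, to which genes with an unadjusted p under 0.05 were added after their values were seen; and genes ranked by correlation. Intervals on summed counts cover counting error only. A single-gene result of the stem cell list is not reported here.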

Additional observations from a re-analysis of the deposited data

Results flagged for a closer look

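In the 5 groups of 4 libraries, 10 of 50 gene-by-group sets had a library set apart from the other 3 (chance gives about 1 in 20), and 8 of the 10 involved young M4 or old M1. A library counted as set apart when its gap to the nearest of the others, as a share of the range of the group on the log2 CPM scale, exceeded the 95% critical value of Dixon's test. Values below are in CPM. Eomes was high in both libraries but did not exceed this share on the log2 scale. In young M4, Dcx was at 276 CPM against 16.3 to 20.5 in the other young libraries, Sox11 at 82.0 against 26.5 to 31.8, Sox4 at 142 against 19.1 to 23.5, and Draxin at 5.50 against 2.02 to 2.31. Neurod1 was set apart downward there, at 3.03 CPM against 25.3 to 31.1. In old M1, Sox4 was at 39.5 CPM against 15.2 to 16.4, Igfbpl1 at 4.66 against 0.118 to 0.143 and Top2a at 1.77 against 0.433 to 0.475. Neurod1 was at 3.27 CPM in rTg4510-Nano M2 against 24.7 to 33.5, and Mki67 at 1.46 CPM in LM F3 against 3.49 to 4.15.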

How the results depend on the processing

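With edgeR as reported no member was called in any comparison, and leaving out each replicate in turn kept the count at 0 throughout (range 0 to 0). DESeq2 called 1 member in old against young, 3 without old M1 and young M4, 3 in Old-Nano against young, 2 without young M4, 1 in rTg4510 against LM and 1 in rTg4510-Nano against rTg4510. Fitting all 6 groups together called 1 member (Draxin) lower in Old-Nano against young, where 2 of 15305 genes were called lower and 4 higher. Keeping both identical columns called 1 (Neurod1) lower in rTg4510 against LM, where 110 of 15140 genes were called lower and 328 higher. Same-numbered libraries share only a number: their deviations correlated at -0.32 to 0.52. With the replicate block, 1 member (Igfbpl1) was called higher in rTg4510 against LM, where 267 of 15083 genes were called higher and 35 lower. The old against young log2 fold changes with the block became 0.43 for Dcx, 0.33 for Sox4, 3.28 for Eomes and 0.38 for Tubb3. In Young vs LM, Eomes turned to -1.44 with the block, -0.26 with the olfactory bulb covariate and -0.59 without young M4 or without libraries low in CA markers, and ran from -0.59 to 4.98 with 1 replicate left out. No paired analysis was possible for Old-Nano against old or young because they share fewer than 2 numbers. In old against young, leaving out 1 replicate gave log2 fold changes from -2.75 to 0.092 for Dcx, -1.72 to 0.042 for Sox4, -7.42 to 2.81 for Eomes, -0.59 to 0.029 for Neurod1 and -0.40 to 0.18 for Tubb3. Tubb3 was 0.022 without old M1 and young M4, and without libraries low in CA markers; from there leaving out 1 more gave -0.16 to 0.13. The causes were not tested. Counts under about 10 limit Eomes and Igfbpl1 in old mice.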
